A study of Mus musculus with 32 samples.

Results

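The genes described here are 10 isoform genes of the contractile thin filament and its anchor, namely the actins Acta1, Actc1, Acta2, Actb and Actg1, the alpha-actinins Actn2 and Actn3, and the tropomyosins Tpm1, Tpm2 and Tpm3. They were taken by symbol from a table of 54532 genes, 1 row each, and all 10 passed the filter on low counts. RNA was sequenced from tibialis anterior, a fast muscle of the shin, of C57BL/6J mice in 8 groups of 4 libraries. Old mice given BI01, named in the labels as a senolytic, that is an agent against senescent cells, were sampled 7 and 35 days after injury with barium chloride (BaCl in the labels). Vehicle-treated mice, old and young, were sampled without injury and at both of these times. The sources used here do not give ages, sex, dosing or the vehicle itself, and there was no young group with BI01 and no uninjured group with BI01. Libraries are named by group and by the number in the table's column heads, because the columns could be tied to groups and not to single samples. The labels do not say whether libraries of a group are from different animals, and p-values therefore measure only the spread between libraries, which may be technical. The heads of the uninjured columns carry PBS and name the set collected at day 35. No uninjured libraries belong to the day 7 set, and time after injury and collection set cannot be told apart in comparisons with day 7.

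Actins polymerise into the thin filament of the sarcomere, the repeating contractile unit of muscle fibres, and also into the filaments of the cytoskeleton of all cells. Tropomyosins are coiled rods that lie along the actin filament and, with troponin, gate myosin in striated muscle. Alpha-actinins cross-link thin filaments at the Z-disc, the border of the sarcomere. Acta1 is the actin of adult skeletal muscle, while Actc1 is the cardiac actin that developing and regenerating skeletal fibres also make. Acta2 is the actin of smooth muscle and myofibroblasts, and Actb and Actg1 are the cytoplasmic actins. Actn3 is the alpha-actinin of fast fibres and Actn2 is found in all striated muscle. Tpm1 and Tpm2 are the main tropomyosin genes of fast muscle and Tpm3 that of slow fibres, but each tropomyosin gene also has cytoplasmic splice forms, which counts per gene do not separate.

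Promoters of the actin genes are shown because actin genes are textbook targets of serum response factor (SRF), which binds the CArG box. RefSeq promoters on GRCm38.p6, the patch release of the mm10 assembly, were held for 8 of the 10 genes. The 250 bases before the start listed with each promoter were searched on both strands. The CArG box was sought as the exact letters CCWWWWWWGG, where W is A or T. An exact match was found in Acta1, Actc1 and Actg1, 3 of the 8 genes, and in 1.47% of all 32851 mouse promoters of that length. The sequences below are on the minus strand, 5′ to 3′, and end 1 base before the start. The capitals mark the exact match, and Acta2 is shown beside them as an actin gene with no exact match in its window. Near matches were not counted, such as ccctatatgg in Acta2 and Actc1 and ccttgtttgg in Acta2. The search therefore does not say that Acta2 lacks a site for SRF. The windows are chr8:123894776-123895025 for Acta1, chr2:114052876-114053125 for Actc1, chr11:120348496-120348745 for Actg1 and chr19:34255374-34255623 for Acta2.
Acta1: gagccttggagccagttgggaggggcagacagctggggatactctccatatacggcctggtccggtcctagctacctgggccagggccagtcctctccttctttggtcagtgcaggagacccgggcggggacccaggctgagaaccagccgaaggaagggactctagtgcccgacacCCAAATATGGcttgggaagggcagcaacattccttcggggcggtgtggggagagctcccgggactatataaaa
Actc1: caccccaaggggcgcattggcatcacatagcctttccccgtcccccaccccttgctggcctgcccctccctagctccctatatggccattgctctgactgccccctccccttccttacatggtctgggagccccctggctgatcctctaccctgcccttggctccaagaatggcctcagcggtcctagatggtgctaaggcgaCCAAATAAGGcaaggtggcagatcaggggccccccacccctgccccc
Actg1: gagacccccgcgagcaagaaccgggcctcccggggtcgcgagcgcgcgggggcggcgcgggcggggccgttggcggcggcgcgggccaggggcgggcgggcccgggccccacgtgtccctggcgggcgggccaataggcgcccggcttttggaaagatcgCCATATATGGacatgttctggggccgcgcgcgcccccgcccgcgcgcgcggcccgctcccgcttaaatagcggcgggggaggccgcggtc
Acta2: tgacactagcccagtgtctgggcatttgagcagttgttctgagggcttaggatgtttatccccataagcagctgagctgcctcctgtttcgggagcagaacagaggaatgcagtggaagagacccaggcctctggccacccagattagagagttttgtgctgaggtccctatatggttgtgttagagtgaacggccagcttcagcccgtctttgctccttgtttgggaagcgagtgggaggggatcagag

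The box lies 73 to 64 bases before the start in Acta1, 47 to 38 bases in Actc1 and 90 to 81 bases in Actg1. These positions are from the start listed with the promoter. The window of Actc1 lies wholly, and that of Actg1 partly, inside the gene span listed with the counts, so the positions depend on the start used. The letters TATAAA were present in 1 gene, Acta1, against 12.4% of all promoters, and CANNTG, the E-box core that myogenic factors bind, in 7 of the 8 genes against 66.2%. No match says only that the exact letters are missing from this window. Actb and Actn3 are named only.

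Counts of some of these genes carry an uncertainty of assignment. Of all 50-base windows of the protein-coding transcripts in GENCODE vM39, 64.4% of those of Actg1 and 31.9% of those of Tpm3 recur in another gene, against 9.44% for Actb, under 1% for Acta1, Actc1, Acta2, Actn2 and Actn3, and none for Tpm1 and Tpm2. The other genes include processed pseudogenes and other actins of the 10, namely Actb for Acta1 and Actg1 for both Acta2 and Actb. Only the genes that shared the most windows with each were looked at by name. Over the 32 libraries Gm12715 held 1146 counts and Gm8399 held 377 counts, against 165677 for Actg1, and Tpm3-rs7 held 4038 counts against 47687 for Tpm3. In the table (mm10 coordinates) Acta1 is at chr8:123891769-123894751 (ENSMUSG00000031972, minus strand), Actc1 at chr2:114047282-114053548 (ENSMUSG00000068614, minus strand), Acta2 at chr19:34241090-34255336 (ENSMUSG00000035783, minus strand), Actb at chr5:142903115-142906754 (ENSMUSG00000029580, minus strand) and Actg1 at chr11:120345690-120348542 (ENSMUSG00000062825, minus strand). Actn2 is at chr13:12269426-12340760 (ENSMUSG00000052374, minus strand), Actn3 at chr19:4861223-4877909 (ENSMUSG00000006457, minus strand), Tpm1 at chr9:67022590-67049406 (ENSMUSG00000032366, minus strand), Tpm2 at chr4:43514711-43523765 (ENSMUSG00000028464, minus strand) and Tpm3 at chr3:90072649-90100902 (ENSMUSG00000027940, plus strand).

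Total counts per library were 14129350 to 30439358. Levels are CPM, the counts scaled to a common library size with TMM factors, and levels of different genes are compared per kilobase of the listed gene length (CPM per kb). Fold changes are log2 values from 1 edgeR quasi-likelihood fit of all 32 libraries, with the standard error (SE), and a gene is said to have risen or fallen at a Benjamini-Hochberg adjusted p under 0.05 over 17121 genes. Scaling bears on day 7, since the median over all genes of the day 7 log2 fold change, scaled by library size only, was 1.15 in old and 1.05 in young muscle, in place of 0.14 and 0.17 with TMM. One library stood apart. Library 7 of old vehicle muscle at day 7 had a summed level of 7 fast fibre markers (Myh4, Myh1, Tnnt3, Tnni2, Tnnc2, Ckm and Pvalb) of 5303 CPM, against 31925 to 44296 CPM in the other 3 libraries. Among the old uninjured libraries, library 7 had the highest summed level of 6 regenerating fibre markers (Myh3, Myh8, Myog, Mymk, Mymx and Ncam1), 767 CPM, against 19.3 to 269.7 CPM in the other 3. Values without these libraries stand beside the results that they moved most. In bulk muscle, fewer cells of a type and less RNA per cell cannot be told apart.

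In uninjured muscle the families were each dominated by the isoforms of adult fast fibres. Per length, Acta1 stood at 20471 ± 1266 CPM per kb in old and 24594 ± 3624 CPM per kb in young uninjured muscle (SD, n = 4 each), and made up 98.8% ± 0.402 and 99.5% ± 0.0174 of the summed CPM per kb of the 5 actin genes. Actc1 stood at 89.0 ± 63.7 CPM per kb in old and 27.9 ± 11.97 CPM per kb in young uninjured muscle, and Acta2 at 20.8 ± 7.44 and 4.67 ± 2.65. The ratio of the group means of Acta1 to Actc1 was therefore 230.0 in old and 880.5 in young uninjured muscle. Without old uninjured library 7, Actc1 stood at 58.0 ± 18.1 CPM per kb in old muscle (SD, n = 3) and the ratio was 355. Actn3 held 96.7% ± 0.925 of the alpha-actinin pair in old and 97.7% ± 0.876 in young uninjured muscle. Tropomyosin was shared between Tpm1, with 62.2% ± 6.36 in old and 55.8% ± 2.48 in young uninjured muscle, and Tpm2, with 37.8% ± 6.35 and 44.2% ± 2.47. Tpm3 held 0.0580% ± 0.00992 in old and 0.0524% ± 0.0124 in young uninjured muscle. The split of Tpm1 and Tpm2 depends on the length used: the Tpm1 share in young uninjured muscle was 81.1% with the median length of GENCODE transcripts and 73.7% of the counts with no length.

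**Figure D1:**
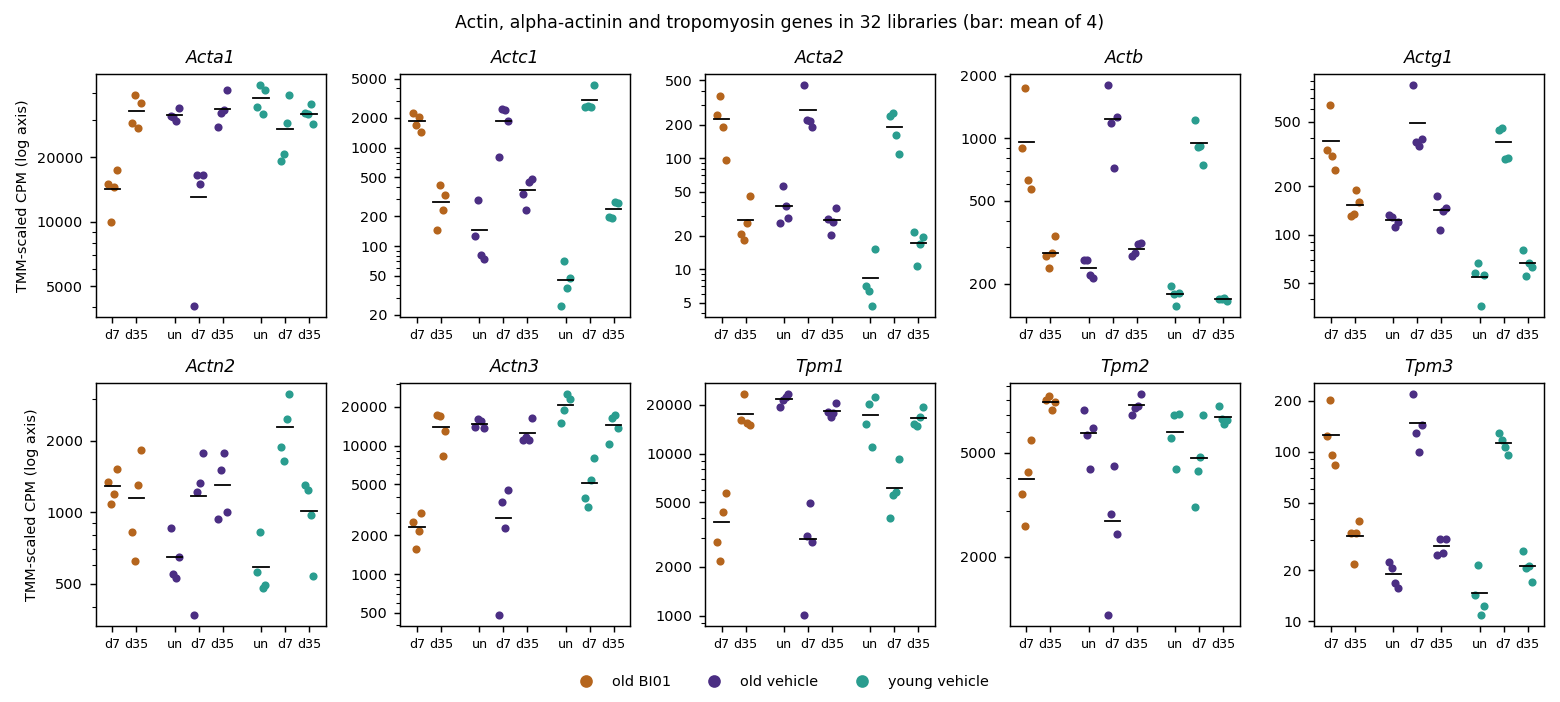
TMM-scaled CPM (log axis) of each of the 10 genes in the 32 libraries, with a bar at the mean of 4. Groups run from old BI01 through old vehicle to young vehicle (un, uninjured; d7 and d35, days after injury). Library 7 of old vehicle muscle at day 7 is the lowest point for Acta1 (4059 CPM), Actn3, Tpm1 and Tpm2. Levels of Acta1 and Tpm2 in young muscle at day 7 lay lower than in uninjured muscle with this scaling and higher with library size alone, and neither difference passed the test.

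At day 7 after injury most of the 10 genes differed from uninjured muscle. Of the 10 genes, 6 rose and 4 fell in old vehicle muscle at day 7 relative to old uninjured muscle, and 6 rose and 2 fell in young muscle. Among all genes tested, 64.2% were called in old (34.4% higher, 29.8% lower) and 60.8% in young muscle (33.3% higher, 27.5% lower), which is the background for these counts. The median log2 fold change of the 10 genes was 1.43 in old and 2.18 in young muscle, beside 0.14 and 0.17 over all genes tested. The libraries of the 2 times did not overlap for 8 of the 10 genes at either age, where 57% of all genes in old and 49.1% in young muscle did not overlap. The old and the young comparison use different libraries throughout.

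Actc1, the actin of immature fibres, showed the largest fold change of the 10 at both ages. It had 801, 2447, 2391 and 1886 CPM in old vehicle muscle at day 7, against 127, 294, 80.4 and 73.6 CPM in old uninjured muscle. Young muscle had 2579, 2675, 2603 and 4319 CPM at day 7, against 24.7, 70.6, 37.7 and 47.8 CPM uninjured. All libraries at day 7 lay above all uninjured ones of their age; library 7 was the lowest of the old day 7 libraries, and the library numbered 7 was the highest of the young ones. The log2 fold change was 3.71 (SE 0.43, adjusted p = 1.05e-08) in old and 6.07 (SE 0.48, adjusted p = 1.13e-11) in young muscle. Without library 7 at day 7 the old value was 3.95 (adjusted p = 4.80e-09), and without library 7 of the old uninjured libraries it was 4.32 (adjusted p = 8.18e-10). The share of Actc1 in the actins averaged 11.2% ± 1.40 in old vehicle and 9.53% ± 1.36 in young muscle at day 7 (SD, n = 4 each), against 0.433% ± 0.315 and 0.111% ± 0.0347 uninjured. All 6 regenerating fibre markers rose at day 7 at both ages, and their summed level was 2624 to 5793 CPM in old vehicle muscle at day 7, against 19.3 to 767 CPM uninjured, and in young muscle 2749 to 5922 CPM at day 7 and 17.1 to 57.8 CPM uninjured. Their part in the change of Actc1 was not tested.

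Acta1, the adult skeletal actin, was lower at day 7 by a small factor. It had 4059, 16591, 15018 and 16486 CPM in old vehicle muscle at day 7, against 31337, 30783, 29523 and 34129 CPM in old uninjured muscle. In young muscle it had 19318, 20785, 28836 and 39242 CPM at day 7, against 34330.1, 43553, 31867 and 41355 CPM uninjured. The old groups did not overlap, with library 7 far below the rest, while the young groups overlapped through library 7 at day 7 alone. Acta1 fell in old muscle, -1.27 (SE 0.31, adjusted p = 7.10e-04), and still did without library 7, -0.98 (adjusted p = 4.80e-04). With library size alone the old call was lost at -0.32 (adjusted p = 0.238), and it was also lost when the 2 groups alone were fitted, at -1.24 (adjusted p = 0.0503). In young muscle the fold change was -0.48 (SE 0.31, adjusted p = 0.174), which did not pass the test, and with library size alone it turned to 0.36 (adjusted p = 0.194). Without young day 7 library 7 it passed, at -0.79 (adjusted p = 0.0340). The ratio of Acta1 to Actc1 per length was 7.30 in old vehicle and 9.36 in young muscle at day 7, beside 230.0 (or 355 without old library 7) and 880.5 uninjured. The Acta1 share of the actins averaged 77.8% ± 11.7 in old vehicle muscle and 87.1% ± 2.70 in young muscle at day 7. Without library 7 the old mean was 83.7% ± 1.17 (SD, n = 3).

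The smooth muscle actin and both cytoplasmic actins rose at day 7 at both ages. Acta2 had 454, 219, 216 and 189.7 CPM in old vehicle muscle at day 7, against 26.2, 55.7, 37.3 and 29.2 CPM in old uninjured muscle, with library 7 the highest of its group by a wide gap. In young muscle Acta2 had 238, 254, 163 and 109 CPM at day 7, against 7.04, 6.32, 4.69 and 15.2 CPM uninjured. The log2 fold change of Acta2 was 2.86 (SE 0.41, adjusted p = 6.38e-07) in old and 4.52 (SE 0.45, adjusted p = 1.61e-09) in young muscle, and neither pair of groups overlapped. Without library 7 the old value was 2.48 (adjusted p = 5.97e-06). Actb had 1801, 1179, 716 and 1266 CPM in old vehicle muscle at day 7, against 259, 261, 221 and 214 CPM uninjured, and 1229, 907, 917 and 747 CPM in young muscle at day 7, against 195, 179, 157 and 181 CPM uninjured. Its log2 fold change was 2.38 (SE 0.26, adjusted p = 3.79e-09) in old and 2.42 (SE 0.26, adjusted p = 3.63e-09) in young muscle. Actg1 had 846, 378, 354 and 391 CPM in old vehicle muscle at day 7, against 133, 128, 112 and 119.9 CPM uninjured, again with library 7 highest. Young libraries had 446, 458, 296 and 297 CPM at day 7, against 57.8, 67.3, 36.3 and 56.5 CPM uninjured, and neither gene overlapped between the times. Its log2 fold change was 1.998 (SE 0.27, adjusted p = 1.41e-07) in old, or 1.60 (adjusted p = 7.64e-07) without library 7, and 2.78 (SE 0.28, adjusted p = 7.40e-10) in young muscle. Acta2, Actb and Actg1 together held 11.003% ± 11.6 of the actin family in old vehicle muscle and 3.35% ± 1.56 in young muscle at day 7 (SD, n = 4 each), against 0.758% ± 0.0980 and 0.373% ± 0.0446 uninjured. Library 7 held 28.4%, and without it the old mean at day 7 was 5.20% ± 0.686 (SD, n = 3).

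Markers of other cells moved beside these 3 actins. The summed level of 6 fibroblast markers (Pdgfra, Col1a1, Col3a1, Dcn, Lum and Postn), all of which rose at both ages, was 9309 to 14813 CPM in old vehicle muscle at day 7, against 152 to 471 CPM in old uninjured muscle. In young muscle it was 7112 to 11573 CPM at day 7 and 226 to 392 CPM uninjured. The 6 macrophage markers also all rose, to a summed 833 to 2251 CPM in old vehicle muscle at day 7, against 30.4 to 186 CPM uninjured. Markers of smooth muscle moved in both directions. Myh11, the myosin of smooth muscle, fell, with a log2 fold change of -0.84 (adjusted p = 0.00167) in old and -0.60 (adjusted p = 0.0232) in young muscle. Tagln averaged 1.05 ± 0.414 CPM in old vehicle muscle at day 7 and 0.452 ± 0.305 CPM uninjured, and Cnn1 0.580 ± 0.869 and 0.304 ± 0.222 CPM, near 0 in each. Of the 10 markers of smooth muscle and pericytes, 4 rose and 4 fell in old muscle, and 4 rose and 1 fell in young muscle, with a summed 496 to 672 CPM in old vehicle muscle at day 7, against 448 to 498 CPM uninjured, and in young muscle 569 to 639 CPM at day 7 and 339.5 to 439 CPM uninjured. The part of any of these cells in the levels of Acta2, Actb and Actg1 was not tested. Actg2, the other smooth muscle actin, was low at 2.67 ± 1.79 CPM in old vehicle muscle at day 7 and 0.0799 ± 0.113 CPM uninjured, and its rise was called at both ages.

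**Figure D2:**
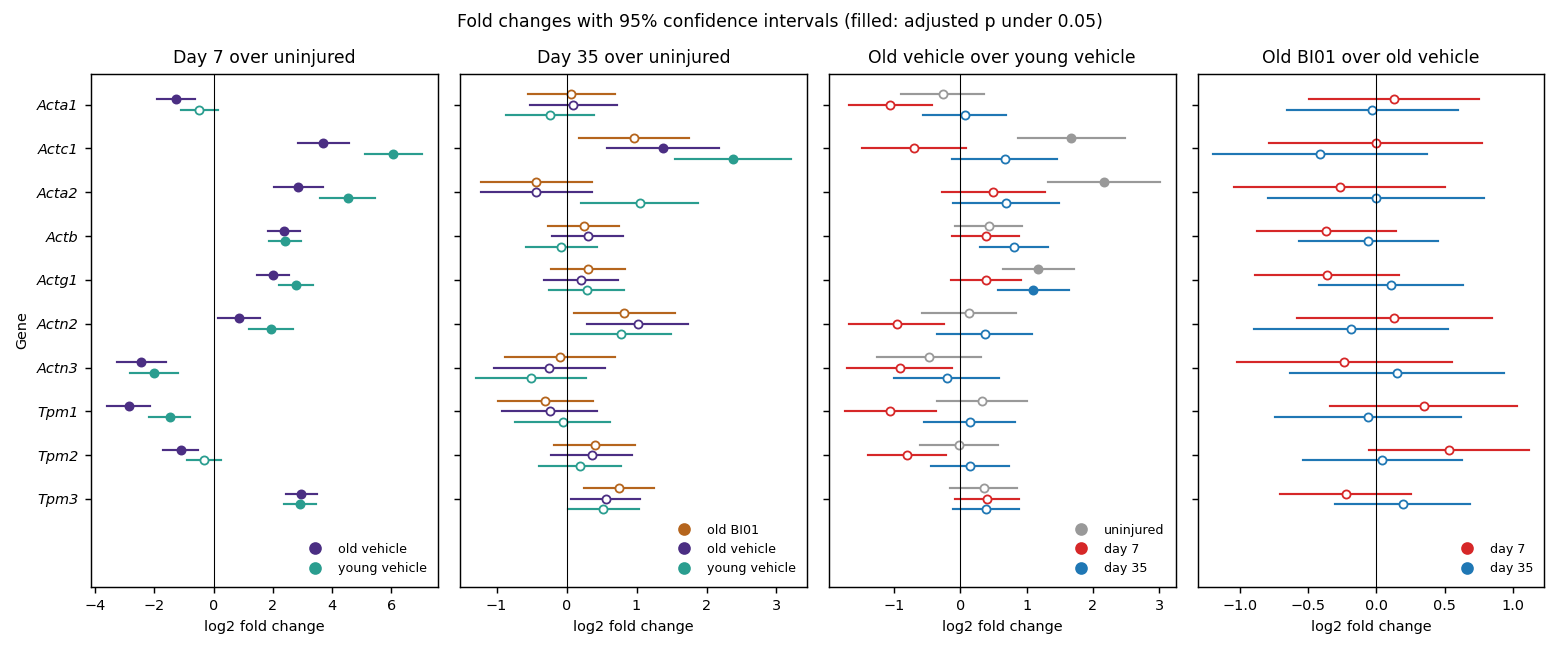
Log2 fold change of each gene with its 95% confidence interval (filled points, adjusted p under 0.05), in panels for day 7 over uninjured, day 35 over uninjured, old vehicle over young vehicle, and old BI01 over old vehicle. In the first panel Actc1 lies at 3.71 in old and 6.07 in young muscle and Tpm1 at -2.86 and -1.48; in the last panel no point is filled. Acta1 and Tpm2 at day 7 in young muscle, not called, turn from below to above 0 with library size alone.

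The alpha-actinins moved apart at day 7. Actn3, the fast fibre isoform, had 484, 3671, 2284 and 4483 CPM in old vehicle muscle at day 7, against 13946, 16177, 15503 and 13713 CPM in old uninjured muscle. Young muscle had 3890.4, 3342, 5367 and 7956 CPM at day 7, against 14853, 18974, 25228 and 23098 CPM uninjured. Every library at day 7 was below every uninjured one at both ages, and library 7 was again the lowest of the old ones. Actn3 fell, -2.44 (SE 0.41, adjusted p = 5.01e-06) in old and -1.999 (SE 0.40, adjusted p = 7.62e-05) in young muscle, and the old value without library 7 was -2.10 (adjusted p = 9.08e-07). Actn2 had 371, 1212, 1328 and 1768 CPM in old vehicle muscle at day 7, against 855, 552, 527 and 648 CPM uninjured, and library 7 lay below all of the uninjured libraries while the other 3 lay above them. In young muscle Actn2 had 1871, 1641, 2453 and 3140.2 CPM at day 7, against 559.7, 825, 482 and 492 CPM uninjured, with no overlap. It rose by 1.95 (SE 0.36, adjusted p = 2.78e-05) in young muscle. In old muscle its rise of 0.86 (SE 0.35, adjusted p = 0.0337) was the weakest call at day 7. It was lost with limma voom at 0.70 (adjusted p = 0.0852), without a filter at 0.85 (adjusted p = 0.0834) and with the 2 groups alone at 0.88 (adjusted p = 0.0889). Without library 7 it was 1.15 (adjusted p = 0.00212), and without any 1 of old uninjured libraries 7, 8 and 9 or old day 7 libraries 8, 9 and 10 it no longer passed, with log2 fold changes of 0.59 to 0.86 and adjusted p-values of 0.0578 to 0.162. The Actn2 share of the pair averaged 27.7% ± 7.58 in old vehicle and 25.8% ± 1.85 in young muscle at day 7 (SD, n = 4 each), against 3.25% ± 0.925 and 2.26% ± 0.876 uninjured. In both ages each library at day 7 exceeded each uninjured one, library 7 included.

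The tropomyosins moved apart too. Tpm1 had 1013, 3098, 4926 and 2852 CPM in old vehicle muscle at day 7, against 19277, 21477, 22260.1 and 23374 CPM in old uninjured muscle. In young muscle Tpm1 had 4021, 5567, 5816 and 9281 CPM at day 7, against 15239.6, 20337, 10944 and 22310.1 CPM uninjured. The groups did not overlap at either age, and the old ones lay the farther apart. Tpm1 fell, -2.86 (SE 0.36, adjusted p = 4.15e-08) in old and -1.48 (SE 0.34, adjusted p = 4.14e-04) in young muscle. Tpm2 had 1199, 2904, 4464 and 2432 CPM in old vehicle muscle at day 7, against 7300.3, 5857, 4325 and 6233 CPM uninjured, and the groups overlapped slightly. Tpm2 fell in old muscle, -1.11 (SE 0.29, adjusted p = 0.00134), a call that was lost with library size alone at -0.14 (adjusted p = 0.606). In young muscle Tpm2 did not pass, -0.32 (SE 0.29, adjusted p = 0.330), and with library size alone its value was 0.51 (adjusted p = 0.0590). Without library 7 the old values were -2.58 (adjusted p = 2.79e-08) for Tpm1 and -0.86 (adjusted p = 0.00421) for Tpm2. Tpm3 rose at both ages. It had 219, 129, 99.0 and 143 CPM in old vehicle muscle at day 7, against 22.3, 20.7, 16.9 and 15.6 CPM uninjured, and 128, 118, 106 and 96.1 CPM in young muscle at day 7, against 14.4, 21.4, 10.9 and 12.3 CPM uninjured. The log2 fold change of Tpm3 was 2.97 (SE 0.26, adjusted p = 4.85e-11) in old and 2.92 (SE 0.26, adjusted p = 9.30e-11) in young muscle, with no overlap. Within the family, by the listed gene lengths, Tpm2 held the larger share at day 7. It averaged 66.4% ± 1.58 in old vehicle and 62.9% ± 1.05 in young muscle at day 7, with Tpm1 at 31.1% ± 3.602 and 36.3% ± 1.03. That order depends on the length used. With GENCODE lengths Tpm1 held 59.3% in old vehicle and 65.6% in young muscle at day 7, against 84.7% and 81.1% uninjured. Of the counts with no length it held 49.2% in old vehicle and 55.6% in young muscle at day 7, against 78.4% and 73.7% uninjured. The Tpm1 share was thus lower at day 7 with the listed lengths, with GENCODE lengths and with none. Counts of Tpm3 do not separate its slow fibre forms from its cytoplasmic ones. Tpm3 made up 2.47% ± 2.37 in old vehicle and 0.788% ± 0.346 in young muscle at day 7, so its rise left it a minor part of the family. Without library 7 the old mean was 1.31% ± 0.562 (SD, n = 3). Of 7 slow fibre markers 5 rose at day 7 at both ages, with a summed 695 to 840.3 CPM in old vehicle muscle at day 7, against 45.5 to 353 CPM uninjured, and of 7 fast fibre markers 5 fell. Their part in the tropomyosin levels was not tested.

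**Figure D3:**
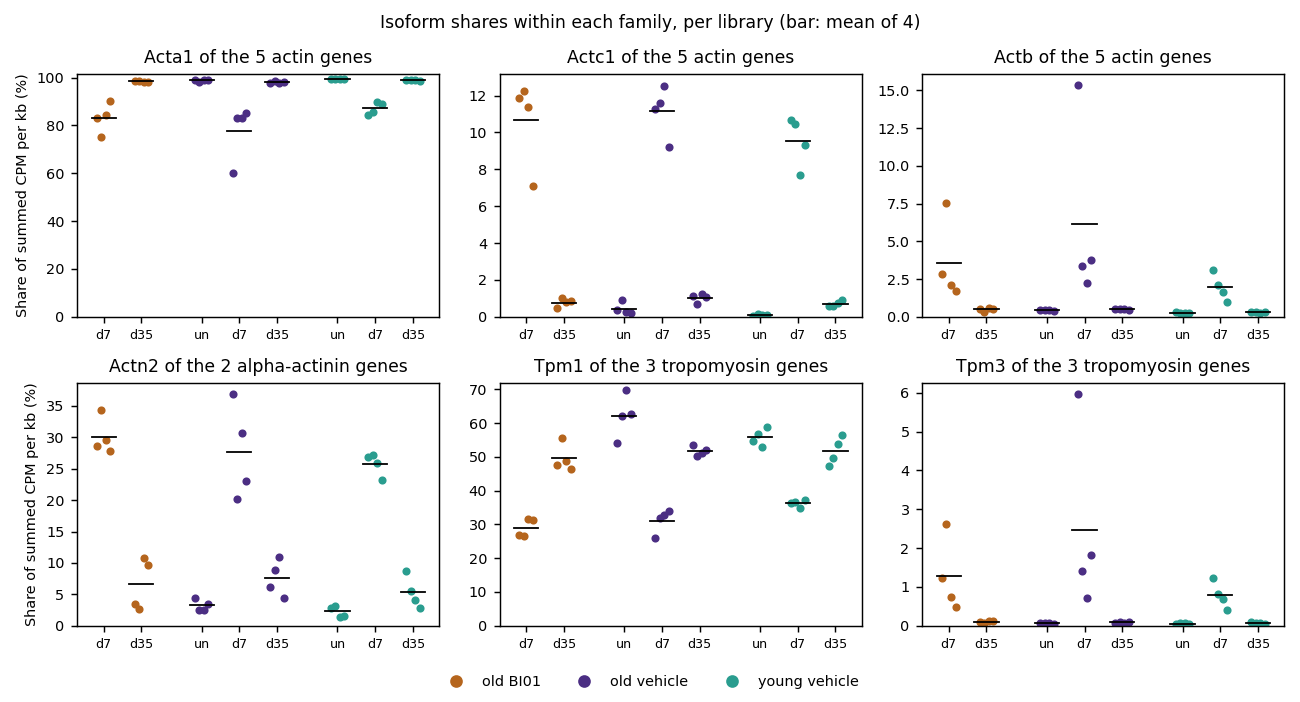
Share of a gene in the summed CPM per kb of its family (percent), per library with a bar at the mean of 4, for Acta1, Actc1 and Actb of the 5 actin genes, Actn2 of the 2 alpha-actinins, and Tpm1 and Tpm3 of the 3 tropomyosins. Groups run from old BI01 through old vehicle to young vehicle (un, uninjured; d7 and d35, days after injury). The Actn2 share averages 30.1% ± 2.95 in old BI01, 27.7% ± 7.58 in old vehicle and 25.8% ± 1.85 in young muscle at day 7, above every uninjured library.

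All 9 shares tested (Actn3 mirrors Actn2) did not overlap between day 7 and uninjured muscle at either age, and each had an exact two-sided permutation p of 0.0286, the smallest that 4 against 4 libraries can give. Adjusted over all 117 share tests the smallest value was 0.0557, so no share passed 0.05. That adjusted value depends on how many of the 117 tests reach the smallest p. Shares of a family sum to 100, so they are not independent of each other.

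Other genes of the 3 families, chosen with earlier results of these data known, were called in the same direction as the non-muscle members. Actn1, the alpha-actinin of the cytoskeleton, had a log2 fold change of 3.87 (adjusted p = 2.26e-09) in old and 4.37 (adjusted p = 1.08e-09) in young muscle at day 7. Actn4, its non-muscle relative, had 1.94 (adjusted p = 1.05e-08) in old and 1.53 (adjusted p = 7.54e-07) in young muscle, and Tpm4, a cytoplasmic tropomyosin gene, 2.81 (adjusted p = 2.56e-08) and 3.16 (adjusted p = 6.49e-09). With Actg2, all 4 of these genes rose at both ages. Of 12 regulators of cytoplasmic actin, 12 rose in old and 11 in young muscle, and none fell. They include Cfl1, the cofilin that severs filaments, with 2.98 (adjusted p = 2.23e-10) in old and 2.53 (adjusted p = 4.64e-09) in young muscle, and Lcp1, a leukocyte actin bundler, with 5.16 (adjusted p = 6.20e-10) and 4.58 (adjusted p = 5.64e-09). Arpc1b and Arpc5, subunits of the Arp2/3 nucleator, had 3.19 (adjusted p = 2.68e-10) and 2.56 (adjusted p = 2.33e-09) in old muscle and 2.49 (adjusted p = 2.24e-08) and 2.33 (adjusted p = 1.96e-08) in young muscle. The median log2 fold change of the 12 was 2.51 in old and 2.41 in young muscle, beside 0.14 and 0.17 over all genes tested. Of 16 partners of the thin filament and Z-disc, 12 fell and 1 rose in old muscle, and 9 fell and 1 rose in young muscle, with medians of -1.33 and -0.83. Tcap, which caps titin at the Z-disc, had -4.05 (adjusted p = 9.65e-10) in old and -3.82 (adjusted p = 3.00e-09) in young muscle, and Neb, the nebulin that spans the thin filament, had -1.62 (adjusted p = 7.88e-05) and -1.57 (adjusted p = 1.27e-04). Capza2, a subunit of the capping protein, had -1.41 (adjusted p = 5.83e-10) in old and -1.02 (adjusted p = 2.38e-07) in young muscle. The Z-disc gene Ldb3 had -2.005 (adjusted p = 1.41e-07) and -1.08 (adjusted p = 6.79e-04), and Nrap -2.16 (adjusted p = 6.55e-07) and -2.14 (adjusted p = 8.40e-07). The gene that rose was Lmod2 in old muscle, 1.73 (adjusted p = 0.00298), against -0.42 (adjusted p = 0.457) in young muscle, and Lmod3 in young muscle, 1.16 (adjusted p = 2.35e-04), against 0.17 (adjusted p = 0.558) in old muscle. Both are leiomodins, nucleators of thin filaments. Lmod2 averaged 136 ± 51.1 CPM in old vehicle muscle at day 7 and 40.9 ± 14.2 CPM uninjured, and in young muscle 184 ± 69.0 CPM at day 7 and 245 ± 171 CPM uninjured (SD, n = 4 each). The test of the age difference in its day 7 response gave 2.15 (adjusted p = 0.0486), and that of Lmod3, which was not called, -0.99 (adjusted p = 0.0797).

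Regulators of actin transcription were measured too. SRF works with the MRTF coactivators, which sense free actin. Srf itself fell at day 7, -0.84 (adjusted p = 1.57e-06) in old and -0.80 (adjusted p = 3.88e-06) in young muscle, while Fhl2, a target of this pathway, rose, 4.69 (adjusted p = 6.43e-08) and 4.49 (adjusted p = 3.31e-07). Mkl1, the coactivator also called MRTF-A, averaged 68.6 ± 12.7 CPM in old vehicle muscle at day 7 and 53.6 ± 4.59 CPM in old uninjured muscle. In young muscle it averaged 83.5 ± 7.12 CPM at day 7 and 10.3 ± 3.85 CPM uninjured (SD, n = 4 each). Its log2 fold change at day 7 was 0.35 (adjusted p = 0.102) in old, not called, and 3.03 (adjusted p = 7.54e-13) in young muscle, and the test of that difference gave -2.67 (adjusted p = 1.30e-06). Abra, an activator of this pathway, had -2.46 (adjusted p = 3.07e-06) in old and -1.59 (adjusted p = 5.88e-04) in young muscle, and the MEF2 factor Mef2d -0.86 (adjusted p = 1.04e-05) and -1.19 (adjusted p = 5.43e-08). Of 9 regulators found by symbol, 8 passed the filter, and at day 7, 2 rose and 4 fell in old and 2 rose and 3 fell in young muscle.

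The markers of other cells and of fibre states with the smallest p-values at day 7 at either age are given here with their log2 fold changes. Of the smooth muscle and pericyte markers, the pericyte genes had Pdgfrb 2.24 (adjusted p = 2.06e-10) in old and 1.94 (adjusted p = 3.88e-09) in young muscle, Cspg4 2.54 (adjusted p = 4.39e-10) in old and 3.01 (adjusted p = 5.00e-11) in young muscle and Notch3 1.91 (adjusted p = 1.41e-08) in old and 2.22 (adjusted p = 1.61e-09) in young muscle, and the smooth muscle gene had Smtn 0.81 (adjusted p = 2.82e-05) in old and 1.74 (adjusted p = 9.31e-11) in young muscle. The other pericyte genes of the list fell in old muscle and did not pass in young muscle, with Kcnj8 -1.31 (adjusted p = 9.44e-04) in old and -0.34 (adjusted p = 0.391) in young muscle and Rgs5 -0.67 (adjusted p = 0.0113) in old and -0.18 (adjusted p = 0.497) in young muscle. The smooth muscle gene Lmod1 did likewise, with Lmod1 -0.79 (adjusted p = 0.0152) in old and -0.54 (adjusted p = 0.0979) in young muscle. Fibroblast markers had Col1a1 6.83 (adjusted p = 3.06e-11) in old and 6.56 (adjusted p = 6.46e-11) in young muscle, Col3a1 5.47 (adjusted p = 2.08e-10) in old and 5.87 (adjusted p = 1.02e-10) in young muscle, Postn 7.12 (adjusted p = 1.32e-10) in old and 8.901 (adjusted p = 1.67e-11) in young muscle and Pdgfra 2.58 (adjusted p = 1.61e-10) in old and 2.09 (adjusted p = 8.08e-09) in young muscle. Macrophage markers had Mrc1 4.61 (adjusted p = 5.82e-10) in old and 3.13 (adjusted p = 2.07e-07) in young muscle, Adgre1 5.42 (adjusted p = 3.78e-09) in old and 4.41 (adjusted p = 1.19e-07) in young muscle and Csf1r 4.57 (adjusted p = 8.96e-09) in old and 4.09 (adjusted p = 5.92e-08) in young muscle. Of 4 endothelial markers 3 were called higher and 1 lower in old and 3 higher in young muscle, with Pecam1 0.64 (adjusted p = 0.00248) in old and 0.55 (adjusted p = 0.00939) in young muscle, Cdh5 0.55 (adjusted p = 0.0171) in old and 0.58 (adjusted p = 0.0140) in young muscle and Emcn 0.67 (adjusted p = 0.0202) in old and 1.49 (adjusted p = 1.24e-05) in young muscle. Regenerating fibre markers had Ncam1 3.47 (adjusted p = 7.59e-08) in old and 4.88 (adjusted p = 1.45e-09) in young muscle, Myh8 4.42 (adjusted p = 8.72e-07) in old and 7.52 (adjusted p = 1.63e-09) in young muscle, Myog 3.62 (adjusted p = 1.31e-05) in old and 2.39 (adjusted p = 0.00106) in young muscle and Mymx 3.18 (adjusted p = 1.08e-04) in old and 6.86 (adjusted p = 1.70e-06) in young muscle. Slow fibre markers had Atp2a2 1.98 (adjusted p = 2.43e-07) in old and 2.78 (adjusted p = 1.18e-09) in young muscle, Tnnc1 2.77 (adjusted p = 0.00717) in old and 7.79 (adjusted p = 3.86e-05) in young muscle, Tnni1 3.08 (adjusted p = 0.00727) in old and 8.899 (adjusted p = 5.40e-06) in young muscle and Tnnt1 2.50 (adjusted p = 0.0165) in old and 7.53 (adjusted p = 1.70e-05) in young muscle, and fast fibre markers Tnnt3 -2.93 (adjusted p = 4.86e-08) in old and -1.70 (adjusted p = 1.20e-04) in young muscle, Tnni2 -3.03 (adjusted p = 6.45e-08) in old and -1.78 (adjusted p = 1.25e-04) in young muscle and Ckm -2.98 (adjusted p = 8.52e-08) in old and -1.82 (adjusted p = 9.74e-05) in young muscle. The young values of Mymx, Tnnc1, Tnni1 and Tnnt1 rest on uninjured levels of 0.0724 ± 0.145, 0.127 ± 0.0698, 0.460 ± 0.413 and 0.456 ± 0.380 CPM (SD, n = 4 each), a few counts per library.

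Age was compared first in uninjured muscle. Of the 10 genes 3 rose with age, Acta2, Actc1 and Actg1, and none fell, where 13.4% of all genes tested were called, 5.79% higher and 7.65% lower. All 3 are actins that adult fast fibres make little of. Acta2 had the values given above, 26.2 to 55.7 CPM in old and 4.69 to 15.2 CPM in young uninjured muscle, with no overlap. Its log2 fold change was 2.16 (SE 0.41, adjusted p = 9.43e-04), or 1.90 (adjusted p = 0.00633) without old library 7. Actg1 had 133, 128, 112 and 119.9 CPM in old uninjured muscle, against 57.8, 67.3, 36.3 and 56.5 CPM in young uninjured muscle. All old libraries were above all young ones, and the log2 fold change was 1.18 (SE 0.26, adjusted p = 0.00324). Actc1 was 73.6 to 294 CPM in old and 24.7 to 70.6 CPM in young uninjured muscle. The groups did not overlap, but the nearest old library (number 9) lay just above young library 2, and old library 7 lay far above the rest. Its log2 fold change was 1.67 (SE 0.40, adjusted p = 0.00514). Without old library 7, the one with the highest regenerating fibre markers, it was 1.06 (adjusted p = 0.0631), and the call was lost. It was also lost when the 2 groups alone were fitted, with an adjusted p of 0.0552. Actb was 214 to 261 CPM in old and 157 to 195 CPM in young uninjured muscle, without overlap, and did not pass the test, 0.43 (SE 0.25, adjusted p = 0.271). With it, 4 of the 10 genes did not overlap between the ages, against 19.8% of all genes. The other 6 genes gave log2 fold changes of -0.47 (Actn3) to 0.36 (Tpm3), none called. That of Tpm2, -0.02, was 0.18 (adjusted p = 0.647) with library size alone. The Acta1 share of the actins was 98.8% ± 0.402 in old and 99.5% ± 0.0174 in young uninjured muscle, and all 5 actin shares did not overlap between the ages (exact permutation p = 0.0286 each, adjusted 0.0557).

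Markers of immature and slow fibres moved with age in uninjured muscle as well, 5 of 6 regenerating and 5 of 7 slow fibre markers being called higher in old muscle. Those with the smallest p were Mymk at 6.50 (adjusted p = 9.75e-04), Myh3 at 6.35 (adjusted p = 0.00129) and Myh8 at 2.61 (adjusted p = 0.00457), and Tnni1 at 5.99 (adjusted p = 0.00418), Atp2a2 at 1.11 (adjusted p = 0.00603) and Tnnt1 at 5.26 (adjusted p = 0.00719). Their summed levels in the old libraries were 19.3 to 767 and 45.5 to 353 CPM, highest in library 7 for both, against 17.1 to 57.8 and 36.9 to 57.1 CPM in young ones. In the young uninjured libraries Myh7 and Myl2, which define slow fibres, were at 0 counts. Of the 10 markers of smooth muscle and pericytes 1 rose with age, Smtn, at 1.07 (adjusted p = 4.94e-05), and the summed level was 448 to 498 CPM in old and 339.5 to 439 CPM in young uninjured muscle. Myh11 averaged 19.9 ± 3.59 CPM in old and 19.95 ± 2.69 CPM in young uninjured muscle, a log2 fold change of -0.00 (adjusted p = 1). Mkl1 was higher in old uninjured muscle by 2.39 (adjusted p = 1.33e-08), and the thymosin gene Tmsb10, whose product binds free actin, by 3.27 (adjusted p = 0.00192). Of the 8 regulators of actin transcription tested, 1, Mkl1, was called higher and 2, Mef2d and Mkl2, were called lower. The median log2 fold change of these 8 was -0.18. Of the 12 regulators of cytoplasmic actin, 1 was called, Tmsb10. The part of these genes and cells in the age differences of Acta2, Actc1 and Actg1 was not tested.

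At day 7, edgeR called 0 of the 10 genes between old vehicle and young muscle, where 2.43% of all genes were called. An unadjusted p under 0.05 was reached by 5 of the 10, DESeq2 called 2 (Acta1 and Tpm1) and limma voom 3 (Acta1, Tpm1 and Tpm2). Acta1, Actc1, Actn2, Actn3, Tpm1 and Tpm2 had lower means in old vehicle muscle. Acta1 was 4059 to 16591 CPM in old vehicle and 19318 to 39242 CPM in young muscle at day 7, without overlap, a log2 fold change of -1.05 (SE 0.31, adjusted p = 0.0598), or -0.75 (adjusted p = 0.142) without library 7. Leaving out young library 4 or 5 or old library 9 or 10 in place of it brought Acta1 past the threshold, at -1.18 to -1.13. Tpm1 differed by -1.05 (SE 0.34, adjusted p = 0.0856), Actn2 by -0.96 (SE 0.35, adjusted p = 0.126) and Actc1 by -0.69 (SE 0.38, adjusted p = 0.332). The 3 non-sarcomeric actins and Tpm3 had higher means in old vehicle muscle, from 0.38 for Actb to 0.50 for Acta2, none called. Without library 7 these differences were 0.13 (adjusted p = 0.936) for Acta2, 0.15 (adjusted p = 0.869) for Actb, -0.00 (adjusted p = 1) for Actg1 and 0.14 (adjusted p = 0.869) for Tpm3. The fast fibre markers, summed, were 5303 to 44296 CPM in old vehicle and 43859 to 94467 CPM in young muscle at day 7, with 0 of 7 called. The 2 genes Acta1 and Actc1, did not overlap between the ages at day 7, against 6.68% of all genes.

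The change at day 7 itself differed with age for 1 of the 10 genes, where 7.7% of all genes tested were called, 3.22% higher and 4.48% lower. Actc1 rose 13.1-fold over the mean of uninjured muscle in old and 67.4-fold in young muscle, or 20.05-fold in old muscle without uninjured library 7, and the difference of the log2 fold changes, old less young, was -2.37 (SE 0.55, adjusted p = 0.0104). It was -2.12 (adjusted p = 0.0223) without library 7 of the old day 7 libraries and -1.75 (adjusted p = 0.0317) without library 7 of the old uninjured ones. Fitted on the 4 groups alone it did not pass, with an adjusted p of 0.0649. The level at day 7 was 801 to 2447 CPM in old vehicle and 2579 to 4319 CPM in young muscle, a log2 difference of -0.69 that was not called, while the uninjured levels differed by 1.67. Acta2 had a difference of -1.66 (SE 0.55, adjusted p = 0.0608) and Tpm1 of -1.38 (SE 0.47, adjusted p = 0.0671), which did not pass. Without library 7 of the old day 7 libraries Acta2 passed at -2.04 (adjusted p = 0.0307) and Actg1 at -1.18 (adjusted p = 0.0290), in place of -0.78 (adjusted p = 0.187) with it. Without young uninjured library 4, the highest in its group, Acta2 passed too, at -2.12 (adjusted p = 0.0134). Tpm1 passed without that library at -1.54 (adjusted p = 0.0447), without young day 7 library 4 at -1.54 (adjusted p = 0.0434) and without old day 7 library 9 at -1.74 (adjusted p = 0.0142). Actb and Tpm3 had the smallest differences, -0.04 with a 95% interval of -0.76 to 0.68 and 0.04 with -0.66 to 0.74. Of the regenerating fibre markers 3 of 6 were also called in this difference, Myh3 at -5.84 (adjusted p = 0.0186), Myh8 at -3.10 (adjusted p = 0.0201) and Mymk at -5.50 (adjusted p = 0.0251), all in the direction of Actc1. Their part in it was not tested.

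**Figure D4:**
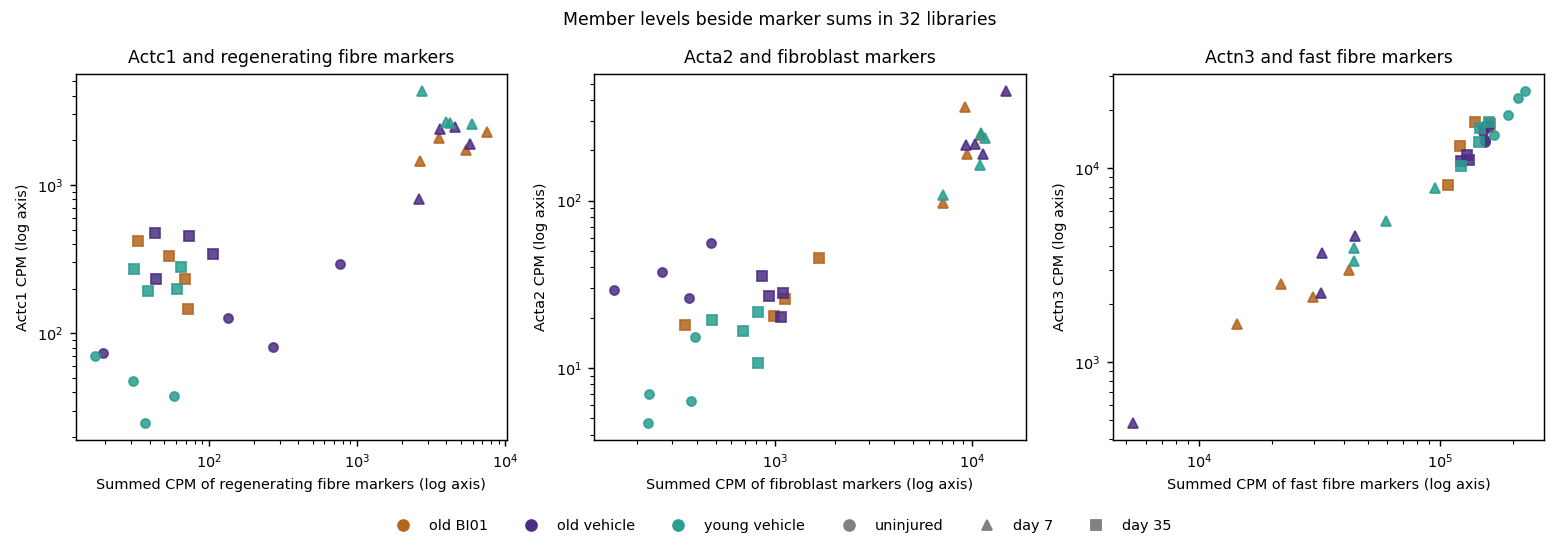
Level of Actc1, Acta2 and Actn3 (CPM, log axis) against the summed CPM (log axis) of 6 regenerating fibre, 6 fibroblast and 7 fast fibre markers in the 32 libraries; colour gives the group and shape the time. Old uninjured library 7 has the highest regenerating marker sum (767 CPM) and Actc1 level of the uninjured libraries, and library 7 of old vehicle muscle at day 7 has the lowest fast marker sum (5303 CPM) and Actn3 level of all. The points share depth, scaling and time, and no cause is read from them.

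At day 35 few of the 10 genes differed from uninjured muscle past the test. Relative to uninjured muscle of the same age, 0 of the 10 were called in old BI01 muscle, 1 in old vehicle muscle and 1 in young muscle, where the shares of all genes called were 8.1% (4.53% higher, 3.56% lower) in old BI01, 5.64% (3.17% higher, 2.47% lower) in old vehicle and 15.7% (7.06% higher, 8.66% lower) in young muscle. The 2 old comparisons share the old uninjured libraries. In old BI01 muscle 3 of the 10 had an unadjusted p under 0.05, and DESeq2 called 1, Tpm3. The gene called in both vehicle groups was Actc1. It had 145, 418, 230.4 and 333 CPM in old BI01 muscle at day 35 and 340.1, 230.5, 449 and 476 CPM in old vehicle muscle at day 35, against 127, 294, 80.4 and 73.6 CPM in old uninjured muscle. In young muscle it had 199, 192, 279 and 272 CPM at day 35, against 24.7, 70.6, 37.7 and 47.8 CPM uninjured, with no overlap. Both old groups at day 35 overlapped the uninjured group through its library 7. The log2 fold change was 0.97 (SE 0.39, adjusted p = 0.133) in old BI01, 1.38 (SE 0.39, adjusted p = 0.0315) in old vehicle and 2.38 (SE 0.41, adjusted p = 1.71e-04) in young muscle. Without old uninjured library 7 it was 1.58 (adjusted p = 0.00856) in old BI01, which then passed, and 1.99 (adjusted p = 0.00153) in old vehicle muscle. The old vehicle call was lost without any 1 of old uninjured libraries 6, 8 and 9 or old day 35 libraries 6, 8 and 9, at 1.15 to 1.41 (adjusted p = 0.0524 to 0.138). None of the 6 regenerating fibre markers was called higher at day 35, Myh3 was called lower in old BI01, -4.16 (adjusted p = 0.0154), and in old vehicle muscle, -3.84 (adjusted p = 0.0288), and Mymk in old BI01 muscle, -3.21 (adjusted p = 0.0187). Their summed level was 33.3 to 72.1 CPM in old BI01, 43.6 to 107 CPM in old vehicle and 31.4 to 64.5 CPM in young muscle at day 35. In old uninjured muscle it was 19.3 to 767 CPM, highest in library 7. The old sums at day 35 lie within that range, and the falls of Myh3 and Mymk were not tested without library 7.

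In terms of shares, Actc1 made up 0.111% ± 0.0347 of the actins in young uninjured muscle, 9.53% ± 1.36 at day 7 and 0.694% ± 0.154 at day 35. In old vehicle muscle it made up 0.433% ± 0.315 uninjured (0.280% ± 0.0917 without library 7), 11.2% ± 1.40 at day 7 and 1.03% ± 0.254 at day 35. The share of Actn2 was also highest at day 7. Actn2 made up 2.26% ± 0.876 of the alpha-actinins in young uninjured muscle, 25.8% ± 1.85 at day 7 and 5.31% ± 2.54 at day 35. In old vehicle muscle it made up 3.25% ± 0.925, 27.7% ± 7.58 and 7.61% ± 2.88 at these times. Its mean level was 2276 CPM at day 7 and 1011 CPM at day 35 in young muscle, but 1170 and 1305 CPM in old vehicle muscle. The log2 fold change of Actn2 at day 35 was 0.83 (SE 0.35, adjusted p = 0.160) in old BI01, 1.01 (SE 0.35, adjusted p = 0.0932) in old vehicle and 0.78 (SE 0.35, adjusted p = 0.132) in young muscle, none past the threshold. With library size alone it passed in young muscle, at 0.99 (adjusted p = 0.0313), and with DESeq2 in old vehicle muscle, at 1.02 (adjusted p = 0.0410). Acta2 was 10.8 to 21.6 CPM in young muscle at day 35 and 4.69 to 15.2 CPM uninjured, 1.04 (SE 0.41, adjusted p = 0.0817). It passed without young uninjured library 4, at 1.505 (adjusted p = 0.0149), with library size alone, at 1.28 (adjusted p = 0.0465), and with DESeq2, at 0.98 (adjusted p = 0.0483). In old muscle the Acta2 difference was -0.43 (adjusted p = 0.590) with BI01 and -0.43 (adjusted p = 0.653) with vehicle. Tpm3 was 0.75 (SE 0.24, adjusted p = 0.0517) in old BI01, 0.56 (adjusted p = 0.217) in old vehicle and 0.52 (adjusted p = 0.150) in young muscle, and it passed in old BI01 without BI01 library 7, at 0.89 (adjusted p = 0.0241), and in young muscle without young uninjured library 2, at 0.76 (adjusted p = 0.0397). By the listed gene lengths Tpm1 and Tpm2 held near equal shares at day 35, 49.6% ± 4.22 and 50.3% ± 4.19 in old BI01, 51.8% ± 1.41 and 48.1% ± 1.41 in old vehicle and 51.8% ± 4.12 and 48.1% ± 4.10 in young muscle. With GENCODE lengths Tpm1 held 76.9% in old BI01, 78.6% in old vehicle and 78.5% in young muscle, so the near equality rests on the listed lengths. Libraries of day 35 and uninjured muscle did not overlap for 0 of the 10 genes in old BI01, 3 in old vehicle and 1 in young muscle, against 19%, 19.4% and 19.8% of all genes.

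Between day 35 and day 7, 4 genes rose and 5 fell in old BI01 and in old vehicle muscle, and 2 rose and 6 fell in young muscle, where the shares of all genes called were 55.6% (26.2% higher, 29.4% lower) in old BI01, 58.9% (27.5% higher, 31.4% lower) in old vehicle and 55.3% (26% higher, 29.3% lower) in young muscle. Libraries of the 2 times did not overlap for 9, 9 and 8 of the 10 genes in these groups, against 53.7%, 51.7% and 50.4% of all genes. Actc1 fell, with log2 fold changes of -2.74 in old BI01, -2.33 in old vehicle and -3.69 in young muscle. Acta2 fell too, with -3.02, -3.29 and -3.48 in these groups. Tpm1 had 2.21 in old BI01, 2.62 in old vehicle and 1.42 in young muscle and Actn3 2.58, 2.20 and 1.49, all called. Acta1 rose in old BI01, 1.21 (adjusted p = 0.00142), and in old vehicle muscle, 1.37 (adjusted p = 3.82e-04), calls that were lost with library size alone at 0.34 (adjusted p = 0.220) and 0.46 (adjusted p = 0.0917). It did not pass in young muscle, 0.24 (adjusted p = 0.516), and turned to -0.37 (adjusted p = 0.184) with library size alone. Tpm2 rose in old BI01, 0.98 (adjusted p = 0.00480), a call lost with library size alone at 0.11 (adjusted p = 0.686), and in old vehicle muscle, 1.46 (adjusted p = 7.52e-05). In young muscle it had 0.52 (adjusted p = 0.126), or -0.10 (adjusted p = 0.746) with library size alone, and it passed without young day 7 library 7 at 0.77 (adjusted p = 0.0309). Actn2 fell in young muscle, -1.17 (adjusted p = 0.00589), and did not pass in old BI01, -0.16 (adjusted p = 0.710), or old vehicle muscle, 0.16 (adjusted p = 0.717). With library size alone its value in old vehicle muscle turned to -0.74 (adjusted p = 0.0417).

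Between the ages at day 35, 1 of the 10 genes was called, Actg1, where 3.51% of all genes were, 1.72% higher and 1.79% lower. It had 175, 107, 140.4 and 147 CPM in old vehicle muscle at day 35, against 80.0, 55.7, 66.7 and 63.5 CPM in young muscle at day 35. All old libraries exceeded all young ones. The log2 fold change was 1.10 (SE 0.26, adjusted p = 0.0129), close to that of uninjured muscle, 1.18, from other libraries. Without young day 35 library 2 it was 1.02 (adjusted p = 0.0641) and without old day 35 library 6 0.98 (adjusted p = 0.0556). Actb had 271, 279.9, 311 and 314 CPM in old vehicle and 169, 168, 172 and 165 CPM in young muscle at day 35. The groups lay far apart relative to their spread, and the test gave 0.80 (SE 0.25, adjusted p = 0.0701), while DESeq2 gave an adjusted p of 0.0263 and limma voom 0.0201. These 2 genes were those without overlap, against 16.5% of all genes. Tpm4 was called between the ages at day 35 as well, 1.18 (adjusted p = 0.0350), and Mkl1 at 2.52 (adjusted p = 2.66e-09). No age difference in the change at day 35 was called for any of the 10 genes in edgeR, DESeq2 or limma voom. In edgeR 0% of all genes were called, and 1 of the 10, Acta2, had an unadjusted p under 0.05. The differences, old less young, ran from -1.47 (Acta2) to 0.38 (Actb). That of Acta2 (SE 0.56, adjusted p = 0.417) had a 95% interval of -2.62 to -0.33, which excludes 0. The intervals of the 10 genes lay within -2.62 and 1.38, so a missing call does not show equal responses.

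BI01 was compared with vehicle in old muscle at each time. None of the 10 genes was called at day 7 or day 35 by edgeR, DESeq2 or limma voom, none had an unadjusted p under 0.05, and 0% of all genes were called by edgeR at either time. At day 7 the log2 fold changes ran from -0.37 (Actb) to 0.53 (Tpm2), and the 95% intervals of the 10 genes lay within -1.04 and 1.12. At day 35 they ran from -0.41 (Actc1) to 0.19 (Tpm3), with intervals within -1.19 and 0.94. Differences of about 2-fold in single genes are therefore within what these libraries leave possible. Actb had 902, 1749, 629 and 568 CPM in old BI01 muscle at day 7, against 1801, 1179, 716 and 1266 CPM in old vehicle muscle at day 7. BI01 library 2 was as high as vehicle library 7, and the groups overlapped. Tpm2 had 3465, 2617, 4226 and 5597 CPM in old BI01 muscle at day 7, against 1199, 2904, 4464 and 2432 CPM in old vehicle muscle. Its log2 fold change of 0.53 (SE 0.29, adjusted p = 0.742) was 0.29 (adjusted p = 0.770) without vehicle library 7. Actc1 averaged 1874 ± 361 CPM in old BI01 and 1881 ± 763 CPM in old vehicle muscle at day 7 (SD, n = 4 each), a log2 fold change of -0.01 (SE 0.38, adjusted p = 1.000) with an interval of -0.79 to 0.78. At day 35 it averaged 281 ± 119 and 374 ± 112 CPM, -0.41 (SE 0.38, adjusted p = 1). None of the 10 genes was without overlap at either time, against 1.76% of all genes at day 7 and 3.02% at day 35. No share was without overlap at either time. Acta1 made up 83.2% ± 6.18 of the actins in old BI01 and 77.8% ± 11.7 in old vehicle muscle at day 7, and 98.4% ± 0.229 and 98.2% ± 0.336 at day 35. The Actn2 share was 30.1% ± 2.95 in old BI01 and 27.7% ± 7.58 in old vehicle muscle at day 7, and the Tpm1 share 29.0% ± 2.75 and 31.1% ± 3.602. The change between the 2 times did not differ with BI01 for any of the 10 genes in edgeR, DESeq2 or limma voom (0 called, 0% of all genes in edgeR, 0 with an unadjusted p under 0.05), from -0.49 (Tpm2) to 0.47 (Actg1).

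Across the 32 libraries the 10 genes fell into groups by their course. The correlations are of log2 CPM, describe libraries that share time, age and scaling, and carry no test. Acta1, Actn3, Tpm1 and Tpm2 went together, with r from 0.80 (Actn3 and Tpm2) to 0.93 (Acta1 and Actn3). Actb, Actg1, Acta2 and Tpm3 went together too, with r from 0.94 (Acta2 and Tpm3) to 0.97 (Actb and Tpm3). Actn2 stood between them, with r = 0.04 to Acta1, -0.24 to Actn3 and 0.67 to Actc1. Actc1 lay nearer to Actb, Actg1, Acta2 and Tpm3, with r = 0.85, 0.85, 0.88 and 0.89. To Acta1, Actn3, Tpm1 and Tpm2 its r was -0.54, -0.74, -0.71 and -0.45. Among 9744 other protein-coding genes whose group means averaged 5 CPM or more, the 3 most like each gene over the 32 libraries were sought. For Acta1 they included Myl1 (r = 0.97) and Eef1a2 (0.97), of which Myl1 is a fast myosin light chain. For Actn3 they were Cacna1s (r = 0.99), Trdn (0.99) and Ttn (0.99), parts of the calcium release machinery and, in Ttn, the giant titin. Tpm1 was closest to Tnnt3 (r = 1.00), Tnni2 (0.99) and Ckm (0.99), the fast troponins and muscle creatine kinase. Tpm2 was closest to Ndufa10 (r = 0.96), Uqcrc1 (0.95) and Fitm1 (0.95), of which Ndufa10 and Uqcrc1 encode parts of the respiratory chain. Actb was closest to Rrbp1 (r = 0.98), Cd44 (0.98) and Pdia4 (0.98), and Actg1 to Tpm4 (r = 0.98), Anxa5 (0.97) and Flna (0.96), of which Tpm4 belongs to the tropomyosins and Flna is the actin cross-linker filamin A. Tpm3 was closest to Gnai2 (r = 0.99), Cap1 (0.99) and Msn (0.99), of which Cap1 and Msn are proteins of the actin cortex. Acta2 was closest to C1qtnf3 (r = 0.97), Tuba1a (0.97) and Tuba1b (0.97), the last a pair of alpha-tubulins. For Actc1 they were Maged2 (r = 0.96), Tcaf1 (0.96) and Shisal1 (0.95), and for Actn2, at lower values, Fbln7 (r = 0.84), Tspan12 (0.83) and Itih5 (0.82).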

How the data were processed

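RNA-seq counts per gene were analysed for 32 libraries of mouse muscle in 8 groups of 4. Per the labels' protocols, total RNA was isolated with a Qiagen miRNeasy kit and sequenced as mRNA at Novogene. Per the submitters' processing notes, HISAT2 and the mm10 genome were used. Of the counter, its annotation and its use of strand nothing is stated (not given in the sources used here, as for the HISAT2 settings). The deposited values are raw whole-number counts per gene, with no normalization by the authors that the sources record. Every column of counts was matched to a group by its name. No 2 libraries of a group agreed within sampling noise.

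Counts were scaled with TMM (factors 0.673 to 1.87) and fitted in edgeR 4.0.16 (R 4.3.3) with filterByExpr, 1 mean per group and robust quasi-likelihood dispersion. Adjusted p-values are edgeR's, by Benjamini-Hochberg over 17121 genes, unless DESeq2 1.42.0 or limma 3.58.1 (voom) is named. CPM and CPM per kb were computed from the scaled counts, and shares are percent of a family's summed CPM per kb, compared by exact permutation tests. The code was tested on simulated data.

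All 10 genes were tested in each comparison, but the text does not give a value for every gene in each. Of each other list, the 3 called genes with the smallest p at day 7 were named where the list is described, with values at both ages. The 3 genes most alike were taken by Pearson correlation of log2 CPM (prior count 2). A gene among those most like Acta1 is not reported here. The genes and lists were chosen with earlier results of these data known, and Actg2, Lmod1, Lmod3, Neb, Myh11, Kcnj8, Rgs5, Tagln, Cnn1, Myh7 and Myl2 are named after their values were seen. Alternatives tried were other scalings, filters, tools and samples in the fit, each library left out, other lengths and a block of table numbers, with length and the block added after the data were seen.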

Additional observations from a re-analysis of the deposited data

Results flagged for a closer look

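Single libraries far from the other 3 of their group were found in 13 of 152 sets of 4, where chance gives about 1 in 20. Of these, 7 belong to library 7 of old vehicle muscle at day 7. Its levels were 4059 CPM for Acta1, against 15018 to 16591 CPM in the others, 454 CPM for Acta2, against 189.7 to 219 CPM, and 846 CPM for Actg1, against 354 to 391 CPM. In percent of the actin family it held 60.3% for Acta1, against 83.0 to 85.02%, 5.82% for Acta2, against 0.844 to 1.03%, 15.3% for Actb, against 2.27 to 3.74%, and 7.26% for Actg1, against 1.09 to 1.16%.

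In the other groups, Actc1 was 4319 CPM in library 7 of young muscle at day 7, against 2579 to 2675 CPM in the others. Actn3 was 16352 CPM in library 9 of old vehicle muscle at day 35, against 10981 to 11721 CPM. Tpm1 was 23245 CPM in library 7 of old BI01 muscle at day 35, against 15049.6 to 16115 CPM. The Actc1 share was 7.11% in library 4 of old BI01 muscle at day 7, against 11.4 to 12.3%, and the Actg1 share 2.77% in library 2 of that group, against 0.750 to 1.08%. The Tpm2 share was 64.5% in library 6 of young muscle at day 7, against 62.4 to 62.5%.

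The day 7 response of Actc1 differed between the ages by the test of the difference itself, old less young, at a log2 value of -2.37 (adjusted p = 0.0104), with the values without single libraries given in the report.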

How the results depend on the processing

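Of 51 calls on single genes, 41 held in every alternative and 10 were lost in at least 1. The counts of called genes at day 7 in old vehicle and young muscle, between day 35 and day 7, for age in uninjured muscle and for BI01 stayed within 1.5 times of the reported ones in all alternatives. At day 35 in young muscle the count was 3 with library size alone and 2 with DESeq2. In old vehicle muscle at day 35 it was 2 with DESeq2, 0 without a filter and 3 with the 2 groups alone, where Actn2, Actb and Tpm3 were called and Actc1 was lost at 1.38 (adjusted p = 0.130). In old BI01 muscle at day 35 it was 1 with DESeq2, with a filter of 1 CPM in 4 libraries and with the 2 groups alone. For age at day 7 it was 2 with DESeq2, 3 with limma voom and 1 without a filter, and for age at day 35 it was 2 with DESeq2, limma voom and the 2 groups alone. For the age difference of the day 7 response it was 3 with DESeq2, 2 with limma voom and 0 with the 4 groups alone. Leaving out 1 library at a time, counts ranged from 1 to 3 for that difference, 0 to 3 for age at day 7, 0 to 1 for age at day 35, 0 to 1 at day 35 in old BI01 and old vehicle muscle, and 1 to 2 at day 35 in young muscle. The causes were not tested.

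With library size alone, values of genes not called in the reported fit turned in sign to 0.36 (Acta1) and 0.51 (Tpm2) at day 7 in young muscle, 0.18 (Tpm2, age in uninjured muscle), 0.17 (Tpm1) and 0.14 (Actb) at day 35 in young muscle, -0.37 (Acta1) and -0.0950 (Tpm2) between day 35 and day 7 in young muscle, -0.74 (Actn2, the same in old vehicle muscle, there called with adjusted p = 0.0417) and 0.0932 (Actb, age difference of the day 7 response). That last value was 0.0379 with median-of-ratios size factors and 0.0379 with DESeq2, that of Tpm3 was -0.0371 with limma voom, and that of Tpm2 for age in uninjured muscle was 0.00281 without a filter. Among shares, the Tpm2 difference for age at day 7 was -0.182 percentage points with the other family genes added, and that of Tpm1 for age at day 35 was 0.0710 with GENCODE lengths and 0.0601 without lengths. Over fits without 1 library, uncalled values that crossed 0 were Acta1 for age at day 35 (-0.0456 to 0.15), Acta1 for day 35 in old BI01 muscle (-0.0302 to 0.14), Acta1 for day 35 in old vehicle muscle (-0.0214 to 0.17), Actb for the age difference of the day 7 response (-0.28 to 0.15), Actg1 for age at day 7 (-0.000148 to 0.53), Actn2 for age in uninjured muscle (-0.0280 to 0.34), Actn2 for day 35 over day 7 in old BI01 muscle (-0.48 to 0.0391), Actn2 for day 35 over day 7 in old vehicle muscle (-0.14 to 0.43), Actn3 for day 35 in old BI01 muscle (-0.22 to 0.0884), Tpm1 for day 35 in young muscle (-0.22 to 0.0970), Tpm2 for age in uninjured muscle (-0.14 to 0.11) and Tpm3 for the age difference of the day 7 response (-0.22 to 0.19).

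The reported fit is not paired, because the table's columns could not be tied to the titles' replicate numbers. No source says what the table's own numbers mark. Those numbers were still tried as a block for day 35. Libraries of the same number correlated in their deviations from the group means at -0.03 to 0.16 in young and 0.01 to 0.11 in old muscle. In 3 of 8 pairs another number correlated better, and in the rest the same number correlated best. These low values do not decide whether the numbers mark pairs. With the block 4 genes were called at day 35 in young muscle, Actc1 with Acta2 at 1.09 (adjusted p = 0.0215), Actn2 at 0.70 (adjusted p = 0.0354) and Actn3 at -0.55 (adjusted p = 0.0420), and in old vehicle muscle 1, Tpm3 at 0.56 in place of Actc1 at 1.59 (adjusted p = 0.256).

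The groups of 4 give a median SE of 0.32 to 0.33 on the log2 scale for the 10 genes in comparisons of 2 groups, so changes of 2-fold can be missed. Much of the sequence of Actg1 and Tpm3 recurs in other genes, and how reads from such sequence were counted is not given. Counts per gene do not separate splice forms. Day 7 and its collection set cannot be told apart from each other.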
